A study of Homo sapiens with 4 samples.

Results

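The regions described here are called peaks of H3K9me3 that lie in gene deserts of 9 human chromosomes, away from the centromeres. They were chosen by position alone. A peak of either deposited list was taken if it lay on the arms of chromosome 1, 2, 6, 7, 8 or 11, or beyond 22000000 on chromosome 13, 14 or 15 (hg38), and if its summit was more than 200 kb from every protein-coding gene span of RefSeq. A block around the centromere of each of the first 6 chromosomes was left out. Of the 4950 peaks in the lists, 165 met these conditions, 13 in the list of the cells labelled NC and 152 in that of the cells labelled OE-KDM4A.

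The study mapped H3K9me3 by ChIP-seq in Ishikawa, an established human endometrial cancer line. The NC cells had no treatment, and the others carry the treatment label OE-KDM4A. Each condition had 1 immunoprecipitated and 1 input library, and the labels state nothing further of clones, vectors or the level of KDM4A reached. Since each condition had 1 library, differences between the lists have no replicate check and were not tested as differences between conditions. Intervals in parentheses are exact, at 95%, and reflect counting error alone. The sources used here do not state how many reads each library had.

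H3K9me3 is the trimethylated form of lysine 9 on histone H3, the mark of constitutive heterochromatin. It is written by the SUV39H enzymes and SETDB1 and read by HP1 proteins, and it is densest over satellite repeats and many transposable elements. KDM4A is a demethylase that removes methyl groups from lysine 9 and lysine 36 of histone H3. Gene deserts are long stretches without protein-coding genes. Many of them replicate late and lie at the nuclear lamina, and some hold distant enhancers of developmental genes.

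Desert peaks were rare in NC and more numerous in OE-KDM4A. The deserts made up 235.8 Mb of the 1262 Mb of chromosome arms considered, or 18.7% of the length. They held 13 of the 254 NC arm peaks (5.12%, 2.75 to 8.59) and 152 of the 925 OE-KDM4A arm peaks (16.4%, 14.1 to 18.98). The NC share lay below the share of length, with the interval's upper bound at 8.59%, and the interval of the OE-KDM4A share included the share of length. The ratio of peak numbers, OE-KDM4A to NC, was 11.7 (6.64 to 22.5) in the deserts and 3.21 (2.77 to 3.72) within 200 kb of genes on the same arms (773 against 241). In the deserts it was 26.0 (4.27 to 1066) among peaks with a −log10 q from 5 up, where NC kept 1 peak. It was 30 (7.95 to 253) among those with a fold from 5 up, where NC kept 2. Near genes 142 OE-KDM4A peaks stood against 33 of NC at that −log10 q, and 319 against 69 at that fold. With at least 9 fragments stacked at the summit the desert ratio was 12.2 (73 against 6, 5.33 to 34.2), and near genes 478 peaks stood against 131. The odds that an arm peak lay in a desert were 3.64 times higher (2.02 to 7.13) in the OE-KDM4A list than in the NC list. That interval compares these lists and says nothing of other libraries of the same conditions.

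Away from genes peak density was lower in NC, and in OE-KDM4A it stayed within a narrow range. In NC there were 0.252 peaks per Mb inside protein-coding genes (144 peaks), 0.275 within 50 kb of them (72) and 0.130 from 50 to 200 kb (25). In the deserts the NC density was 0.0618 per Mb from 200 to 500 kb (8 peaks), 0.0246 from 500 to 1000 kb (2) and 0.121 beyond 1000 kb (3, with an interval of 0.0250 to 0.354). The OE-KDM4A densities over the same 6 classes were 0.719, 0.782, 0.817, 0.618, 0.688 and 0.646 per Mb, from 411, 205, 157, 80, 56 and 16 peaks. The 3 desert classes of OE-KDM4A thus differed by less than their counting intervals, the widest of which ran from 0.369 to 1.05 per Mb. Over all deserts the density was 0.235 times that near genes in NC (0.123 to 0.409) and 0.856 times in OE-KDM4A (0.714 to 1.02). The OE-KDM4A ratio was 1.30 (0.649 to 2.35, 11 peaks) with deserts bounded by all RefSeq genes and 0.809 (0.665 to 0.981) against near-gene positions outside gene spans, so its side of 1 depended on the definition.

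**Figure D1:**
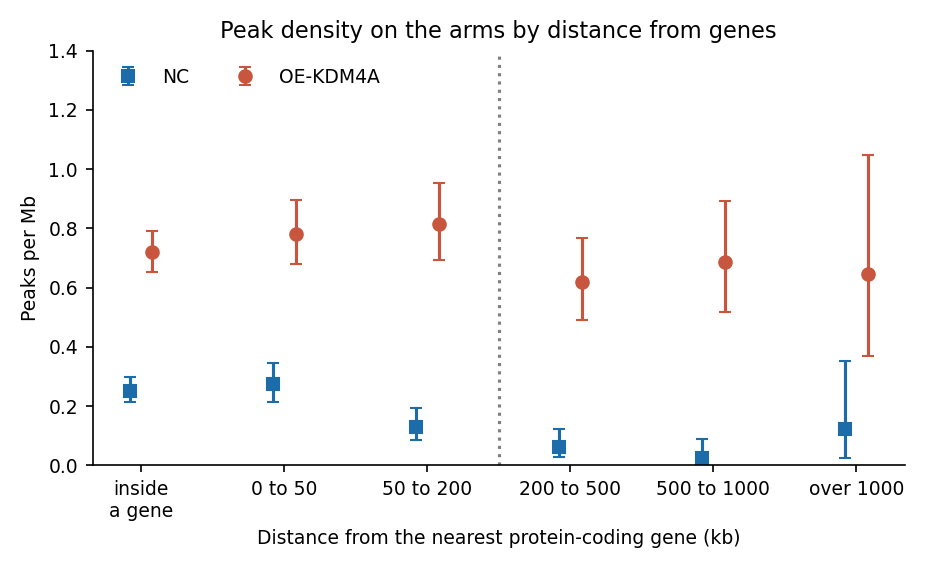
Peaks per Mb of chromosome arm (vertical axis) by distance from the nearest protein-coding gene in kb (horizontal axis), with squares for NC, circles for OE-KDM4A and bars for exact 95% counting intervals; the dotted line marks the 200 kb limit of a desert. NC stands at 0.275 per Mb beside genes and at 0.0246 to 0.121 per Mb in the 3 desert classes, while OE-KDM4A stays between 0.618 and 0.817 per Mb.

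For OE-KDM4A this ratio was lower at each higher minimum of fragments tried than over all peaks, without a steady order. The ChIP pileup, the whole number of fragments stacked at the summit, was recovered from the fold enrichment and −log10 p that the authors deposited. Among OE-KDM4A peaks with a pileup of at least 8 the desert density was 0.796 times that near genes (0.646 to 0.972), from at least 9 it was 0.665 times (0.512 to 0.852), from at least 10 it was 0.697 times (0.511 to 0.933) and from at least 12 it was 0.610 times (0.376 to 0.948). The upper bounds at these 4 limits lay below 1, and the 4 intervals overlapped each other. Each higher limit kept a part of the same peaks, so these are not 4 separate results. Over all peaks the interval, 0.714 to 1.02, included 1. In NC the ratio was 0.199 (0.0718 to 0.446) from 9 fragments on, with 6 desert peaks left.

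The desert peaks were low. The median pileup was 8 fragments in both lists, with quartiles of 8 and 9 in NC and 8 and 10 in OE-KDM4A. In NC the pileups of the 13 peaks ran from 7 to 12. In OE-KDM4A 37 peaks stood at 7 fragments, 42 at 8, 20 at 9, 19 at 10, 24 at 11 to 13 and 10 at 14 or more. Peaks of 7 or 8 fragments made up 53.8% of the desert peaks in NC (7 of 13) and 52.0% in OE-KDM4A (79 of 152), against 24.5% and 27.8% of the whole lists. Near genes on the same arms the shares were 45.6% and 38.2%. The odds of so low a pileup were 1.75 times higher (1.22 to 2.53) in deserts than near genes in OE-KDM4A, and 1.39 times (0.387 to 5.16) in NC.

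Fold enrichment, a linear ratio that the authors deposited for each summit, had a median of 4.67 in NC desert peaks and 4.72 in OE-KDM4A desert peaks. A fold of at least 5 was reached by 2 of 13 in NC (15.4%, against 30.6% of the whole list) and 60 of 152 in OE-KDM4A (39.5%, against 52.7%). Near genes of the same arms 28.6% and 41.3% reached that fold, with medians of 4.42 and 4.72. The odds ratio of deserts against near genes was 0.928 (0.638 to 1.34) for OE-KDM4A and 0.454 (0.0477 to 2.16) for NC, so that both intervals included 1. The −log10 q, the authors' significance of each peak, was at least 5 in 1 of 13 NC desert peaks (7.69%, against 42.7% of the whole list) and in 26 of 152 OE-KDM4A desert peaks (17.1%, against 36.5%). Near genes of the same arms 13.7% and 18.4% reached that limit. Its median over the desert peaks was 2.42 in NC and 2.66 in OE-KDM4A. Median widths were 135 bp and 131.5 bp.

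**Figure D2:**
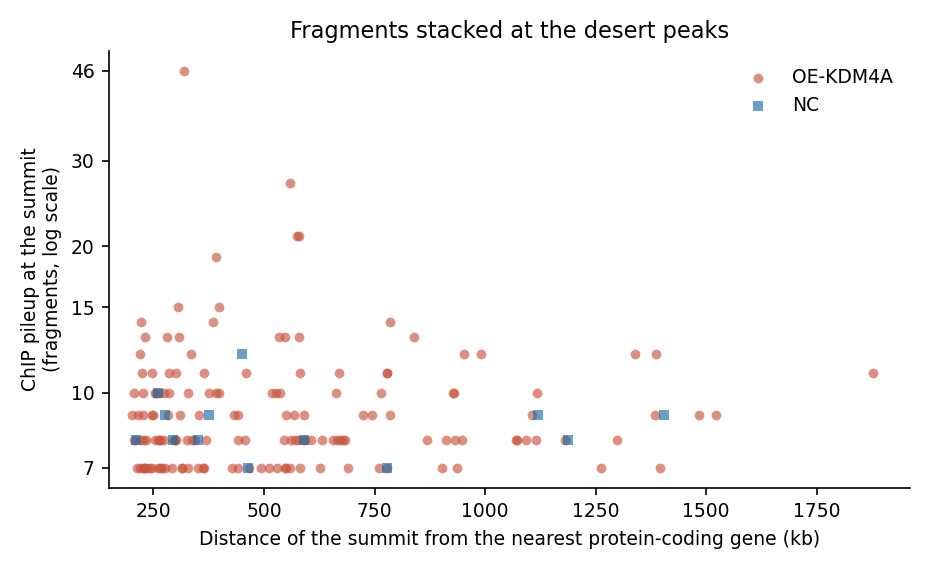
ChIP pileup at the summit in fragments (vertical axis, log scale) against distance from the nearest protein-coding gene in kb (horizontal axis) for the 165 desert peaks, with squares for NC and circles for OE-KDM4A. Of the 152 OE-KDM4A points 142 lie under 14 fragments and the NC points at 7 to 12, and the peaks of 19 to 46 fragments are all from OE-KDM4A.

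The control background at the summit was at the lowest value of its list for most OE-KDM4A desert peaks. This held for 125 of 152 (82.2%, 75.2 to 88.0), against 49.2% of the whole list, and for 2 of 13 in NC (15.4%, 1.92 to 45.4), against 8.24%. Near genes of the same arms it held for 55.1% of OE-KDM4A peaks (426 of 773) and 7.88% of NC peaks (19 of 241). The odds of the lowest background were 3.77 times higher (2.40 to 6.09) in deserts than near genes in OE-KDM4A, and 2.12 times (0.213 to 10.8) in NC. The lowest background was 0.905 fragments in OE-KDM4A and 0.811 in NC. At the lowest background of OE-KDM4A a pileup of 7 gave a fold of 4.199, one of 8 gave 4.72 and one of 9 gave 5.25, so most of these peaks share a few values. The part of the background in the difference between the lists was not tested.

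No desert peak was called in both lists. Of the NC peaks 0 of 13 overlapped an OE-KDM4A peak (upper bound 24.7%), against 34.7% of the whole NC list, and of the OE-KDM4A peaks 0 of 152 overlapped an NC peak (upper bound 2.40%), against 10.2% of that list. Near genes of the same arms 21 of 241 NC peaks (8.71%, 5.47 to 13.0) and 21 of 773 OE-KDM4A peaks (2.72%, 1.69 to 4.12) overlapped. The odds ratio of an overlap in deserts against near genes had an upper bound of 3.74 in NC and 0.964 in OE-KDM4A. NC peaks were sparser in deserts, at 0.0551 per Mb against 0.235 near genes, so OE-KDM4A peaks had fewer to overlap there. The OE-KDM4A bound cannot be told apart from that sparseness. No desert peak had a peak of the other list within 5 kb either. The closest pair lay 47.5 kb apart on chromosome 6, an NC peak at 139726352 to 139726480 and an OE-KDM4A peak at 139773938 to 139774066 within the lncRNA gene FILNC1. A list of called peaks gives no value for a region that was not called, so the level of the other library at these places is unknown.

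The NC desert peaks can be given in full. The one with the highest −log10 q, 6.77, lay on chromosome 14 from 97331843 to 97331982, with 12 fragments and a fold enrichment of 7.01. Its summit was 450 kb beyond VRK1, which encodes a nuclear kinase, and 1837 kb before BCL11B, a zinc finger transcription factor gene of T cell development. It was the only NC desert peak past a −log10 q of 5. The second, with 3.31, lay on chromosome 11 from 38063351 to 38063491, between IFTAP and the synaptic adhesion gene LRRC4C. At 1404 kb from a protein-coding gene it was the most remote of the 13 NC desert peaks.

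The third NC peak (−log10 q 2.94, 9 fragments) lay on chromosome 1 from 87724840 to 87724962 beyond LMO4, which encodes a transcription cofactor of the LIM-only family. A −log10 q of 2.81 and a recovered pileup of 8 were shared by a peak on chromosome 14 from 43913135 to 43913287, between the synaptic adhesion gene LRFN5 and FSCB, and one on chromosome 7 from 69304686 to 69304817, 294 kb before AUTS2, a gene of brain development. Another pair stood at 2.42. Its peaks lay between the protocadherin gene PCDH9 and KLHL1 (chromosome 13, 68512198 to 68512331) and between ERMARD and the Notch ligand gene DLL1 (chromosome 6, 169991139 to 169991276). The last of these was 210 kb from ERMARD, the nearest to a gene among the NC desert peaks.

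The other 6 NC peaks had a −log10 q between 1.46 and 2.25. A pair of them, at 139726352 and at 140493784 on chromosome 6, shared the gap beyond CITED2, which encodes a coactivator that binds CBP and p300, with summits 352 and 1119 kb from that gene. The others lay between FERD3L and POLR1F (chromosome 7, 19434937 to 19435071), beyond SLITRK6 and within the non-coding gene LOC105370300 (chromosome 13, 86836477 to 86836671), between PTPRU and the cartilage gene MATN1 (chromosome 1, 29790044 to 29790171) and between the Krüppel-like factor genes KLF5 and KLF12 (chromosome 13, 73409992 to 73410137). The NC desert peaks were thus spread over 12 gaps on 6 chromosomes. None lay on chromosome 2, 8 or 15, where OE-KDM4A had 38, 22 and 6.

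In OE-KDM4A 5 desert peaks had 19 or more fragments, all on the lowest background. The highest lay on chromosome 8 from 95588180 to 95588367, with 46 fragments, a fold enrichment of 24.7 and a −log10 q of 57.1. It fell within CFAP418-AS1, a long antisense RNA gene, 319 kb beyond CFAP418, a cilium gene, and 554 kb before GDF6, a growth factor gene of the BMP family. A lesser peak of 11 fragments lay 34.4 kb away in the same RNA gene, at 95553637 to 95553791. The next was on chromosome 11 from 82169986 to 82170144, with 27 fragments and a fold of 14.7, within MIR4300HG and between the teneurin gene TENM4 and FAM181B.

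A pair of peaks had 21 fragments and a fold of 11.5. The first lay on chromosome 15 from 95057869 to 95057991, within LOC105370991, 574 kb beyond MCTP2 and 1268 kb before NR2F2, which encodes the orphan nuclear receptor COUP-TFII. The second lay on chromosome 2 from 117235836 to 117235956, between DPP10, a gene for an auxiliary subunit of potassium channels, and the RNA helicase gene DDX18. The fifth, with 19 fragments, lay on chromosome 7 from 52644778 to 52644888, between the actin nucleator gene COBL and POM121L12. It was 0.155 Mb from the left-out centromere block of that chromosome, nearer than any other desert peak.

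The peaks next in −log10 q had 13 to 15 fragments. Those with 15 lay on chromosome 14 from 97187517 to 97187730, between VRK1 and BCL11B, and on chromosome 2 from 125320351 to 125320515, between the contactin-associated protein gene CNTNAP5 and the glycophorin gene GYPC. A peak with 14 lay on chromosome 8 from 122557585 to 122557761 within the RNA gene SMILR, between the hyaluronan synthase gene HAS2 and ZHX2. A further 5 peaks were tied at 13 fragments, a fold of 7.35 and a −log10 q of 7.84. Among them were peaks in the gaps EYS to ADGRB3 (chromosome 6, 66545924 to 66546062), TOX to CA8 (chromosome 8, 59955243 to 59955382) and ADCY8 to EFR3A (chromosome 8, 131595386 to 131595499).

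By chromosome, the desert density of OE-KDM4A ran from 0.367 per Mb on chromosome 11 (7 peaks, 0.148 to 0.757) to 0.829 per Mb on chromosome 7 (16 peaks, 0.474 to 1.35). It was below the near-gene density of the same chromosome on 7 of 9 and above it on chromosomes 7 and 15. The lowest values against the near-gene density were on chromosome 11, with 0.367 against 0.805 per Mb, and on chromosome 13, with 0.435 against 0.929, and on each of the 9 chromosomes the interval in deserts overlapped that near genes. In NC the desert density was below the near-gene density on all 9 chromosomes, and it reached at most 0.104 per Mb, on chromosome 7. Chromosome 13 had the lowest OE-KDM4A to NC desert ratio, 4.33 (13 against 3, 1.19 to 23.7), among the 6 with an NC desert peak. Of these 6, chromosome 1 had the highest, 8.50 (17 against 2, 2.02 to 75.9). Near genes the ratio on these 6 ran from 1.81 on chromosome 14 to 4.57 on chromosome 6. On each of the 6 the near-gene ratio was below the desert ratio, and the intervals of both overlapped. On chromosomes 2, 8 and 15, without an NC desert peak, the desert ratio had only lower bounds, of 9.81, 5.48 and 1.18. The near-gene ratios there were 3.82 (2.65 to 5.61), 4.63 (2.80 to 8.06) and 1.46 (0.865 to 2.51). On chromosome 2 the desert and near-gene intervals did not overlap.

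**Figure D3:**
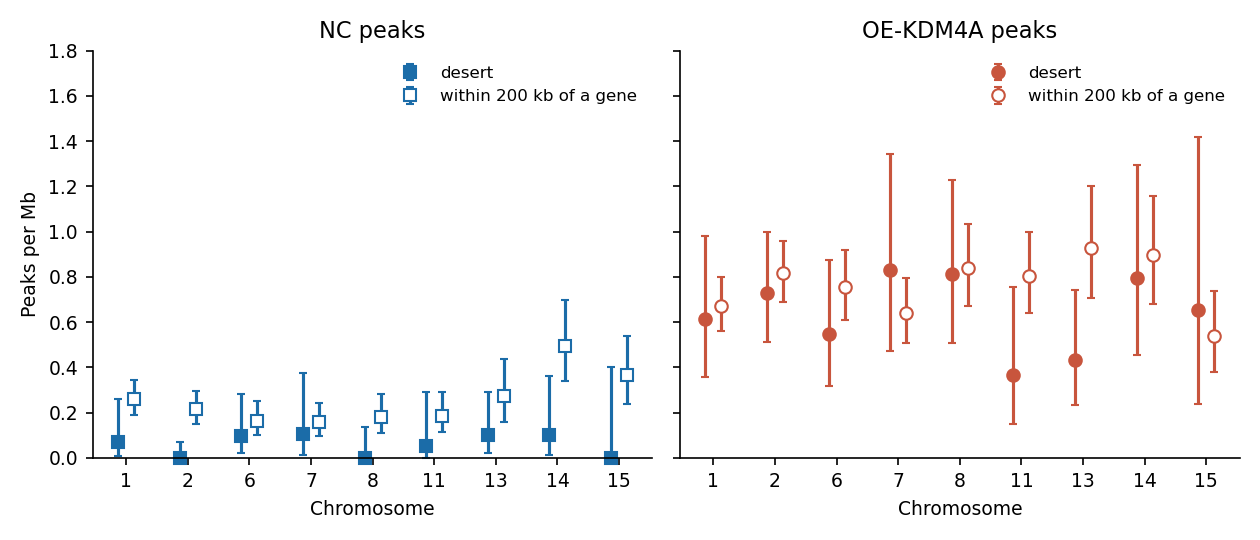
Peaks per Mb (vertical axis) in deserts (filled) and within 200 kb of a protein-coding gene (open) for each of the 9 chromosomes, with NC on the left and OE-KDM4A on the right and bars for exact 95% counting intervals. NC desert densities lie at or below 0.104 per Mb, and those of OE-KDM4A between 0.367 and 0.829 per Mb.

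Most gaps with an OE-KDM4A desert peak held a single one. The arms held 362 gaps long enough to contain desert. Nearly all lay between neighbouring protein-coding genes, and a few were chromosome ends with such a gene on 1 side only, which held no peak. Of the 362 gaps, 97 had an OE-KDM4A peak, 12 an NC peak and 6 a peak of each list. Of the 97 gaps, 66 held 1 OE-KDM4A peak, 15 held 2, 10 held 3, 5 held 4 and 1 held 6. The median distance from an OE-KDM4A desert peak to the nearest other peak of its list was 474 kb, and 71 of the 152 had none within 500 kb. Only 14 had another OE-KDM4A desert peak within 50 kb.

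The gap with 6 was that between VRK1 and BCL11B on chromosome 14, 2288 kb long, which also held the strongest NC desert peak. Its OE-KDM4A summits stood 280, 286, 306, 949, 1216 and 1768 kb beyond VRK1, with 13, 10, 15, 8, 8 and 10 fragments. The first 3 lay close together, and the NC peak stood at 450 kb, 144 kb from the nearest of them. Its density was 3.18 OE-KDM4A peaks per Mb of desert.

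The 5 gaps with 4 OE-KDM4A peaks held no NC peak. The gap between KCNJ3, which encodes a G protein-gated potassium channel, and NR4A2, an orphan nuclear receptor gene, held peaks of 8, 9, 7 and 9 fragments (3.75 per Mb). That between MCTP2 and NR2F2 held the peak of 21 fragments and, 2.88 kb from it, one of 8, besides peaks of 8 and 7 fragments nearer to NR2F2 (2.77 per Mb). The gaps on either side of CNTNAP5 held 4 each, at 2.996 per Mb towards GYPC and 2.15 per Mb towards TSN. The gap between the alpha catenin gene CTNNA2 and SUCLG1, with 3775 kb the longest of all, also held 4 (1.19 per Mb), among them the most remote desert peak, 1877 kb from a gene, on chromosome 2 from 82525192 to 82525322 with 11 fragments. Shorter gaps with 3 peaks were ADCY8 to EFR3A (6.48 per Mb), where peaks of 9 and 13 fragments stood 0.249 kb apart, and TRIB1 to LRATD2 (4.201 per Mb), both on chromosome 8. Ranking by counts or by density over such small numbers is a description of these lists.

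**Figure D4:**
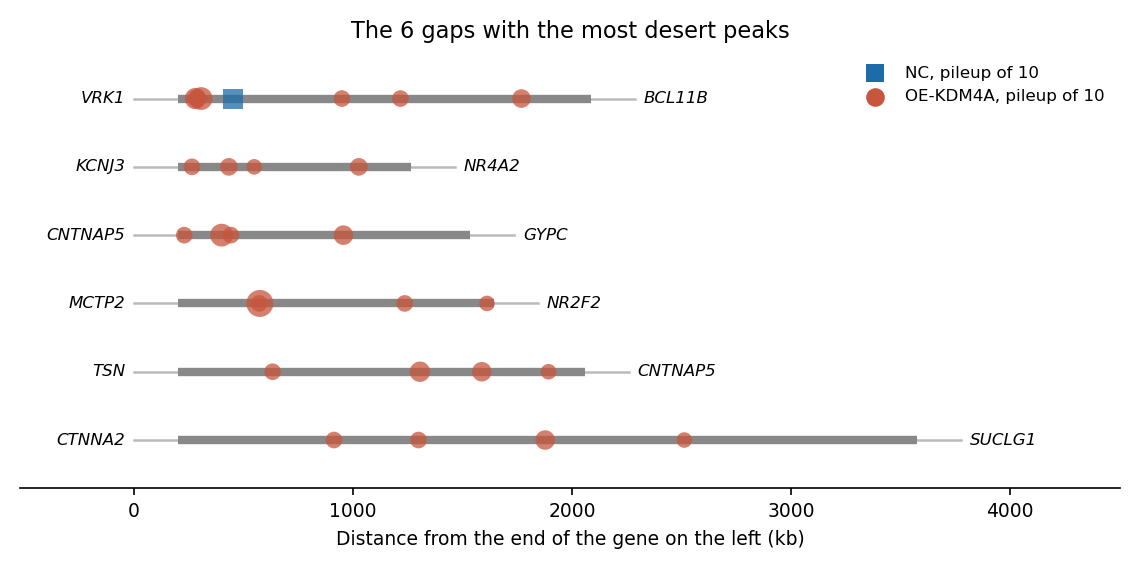
Positions of desert peaks in the 6 gaps with the most of them, as distance in kb from the end of the gene on the left; thick grey lines mark the desert, squares are NC, circles are OE-KDM4A and marker area is proportional to the pileup. The VRK1 to BCL11B gap is the only one of the 6 with an NC peak, and 3 of its OE-KDM4A peaks stand at 280 to 306 kb.

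In position within the deserts the OE-KDM4A peaks followed the available length. Their median distance from a protein-coding gene was 449 kb (quartiles 279 and 679), and that of all desert positions was 458 kb (301 and 717). Beyond 500 kb lay 47.4% of them (39.2 to 55.6), beside 45.0% of the desert length, and beyond 1000 kb 10.5% (6.14 to 16.5), beside 10.5%. Gaps with over 1000 kb of desert held 63.2% of the peaks and 63.4% of the length. Within 5 Mb of a left-out centromere block or limit lay 13 of 152 (8.55%, 4.63 to 14.2), beside 7.71% of the length. For NC the same shares rest on 13 peaks, of which 5 lay beyond 500 kb, 3 beyond 1000 kb and 1 within 5 Mb of a left-out block.

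The share within non-coding genes was likewise close to their share of length. A summit within an lncRNA gene was found for 43 of the 152 OE-KDM4A desert peaks (28.3%, 21.3 to 36.2), beside 27.98% of the desert length covered by such genes. In NC it was found for 1 of 13 (7.69%, 0.195 to 36.0). Pseudogenes covered 0.656% of the desert length and held no summit of either list.

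Lists of genes that often border deserts were counted as flanks of the gaps that held peaks. Synapse and neuron adhesion genes, such as LRRC4C, CNTNAP5 and LRFN5, flanked 35 of 362 gaps with 23.2% of the desert length, and these gaps held 40 of the 152 OE-KDM4A peaks (26.3%, 19.5 to 34.1) and 3 of the 13 NC peaks. Genes listed as developmental transcription factors, such as BCL11B and NR2F2, flanked 12.2% of the length and 19 OE-KDM4A peaks (12.5%, 7.70 to 18.8). The count in NC was 2. That list also held NOVA1, which encodes an RNA-binding protein and flanked 1 of the OE-KDM4A peaks. It did not hold NR4A2, whose gap had 4. Neurotransmitter receptor and ion channel genes, such as KCNJ3 and GRIK2, flanked 5.76% of the length and 15 OE-KDM4A peaks (9.87%, 5.63 to 15.8). Cadherin and protocadherin genes flanked 3.44% of the length and 4 peaks (2.63%), and axon guidance genes 3.62% and 2 peaks (1.32%). For all 5 lists the share of length lay within the interval of the OE-KDM4A share. Olfactory receptor genes flanked 1 gap, which held no peak.

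**Figure D5:**
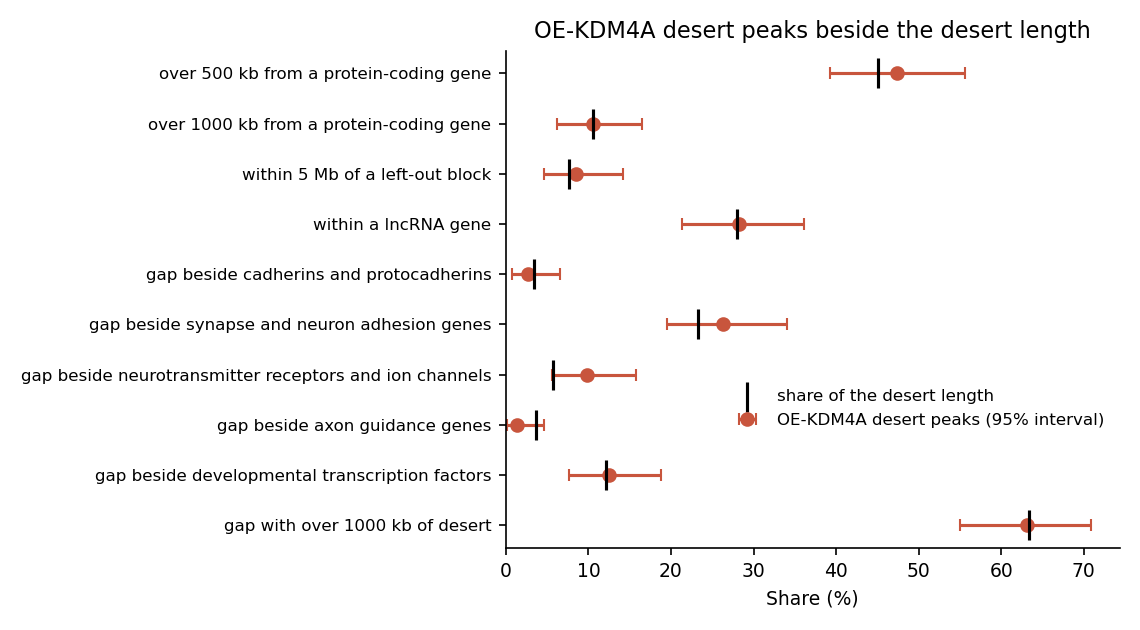
Share in % of the 152 OE-KDM4A desert peaks with each feature (circles, with exact 95% intervals) beside the share of the desert length with it (black ticks); a left-out block is the excluded stretch around a centromere, and gap rows count peaks in gaps flanked by a gene of the list. Each tick falls within the interval of its circle.

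The limit of 200 kb cuts through a continuous range of distances. The peaks just inside it, all from OE-KDM4A, were 201, 205 and 207 kb from a gene, with 9, 10 and 8 fragments. Those just outside, also from OE-KDM4A, were 197, 195 and 195 kb away, with 9, 11 and 7 fragments.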

How the data were processed

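ChIP-seq libraries of H3K9me3 and inputs were made from 4 samples of Ishikawa cells; analysed were 2 lists of peaks, 1 for each ChIP library. The submitters' processing notes name Trimmomatic, Bowtie 1.1.2, MACS2 2.1.0 and hg38, without settings. The deposited fold enrichment is a linear ratio, the deposited p-value and q-value columns are −log10 values, and the deposited score column is 10 times the −log10 q without its decimals. Lines with equal start and end were taken as 1 peak, represented by the line of highest −log10 q, so that the 1234 NC lines became 1165 peaks and the 4187 OE-KDM4A lines 3785; no such peak had summits on both sides of the 200 kb limit. Coordinates are printed from 1.

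The blocks left out were 116500000 to 148300000 on chromosome 1, 87000000 to 99200000 on 2, 53100000 to 65300000 on 6, 52800000 to 66000000 on 7, 38500000 to 51600000 on 8 and 45400000 to 59600000 on 11. Gene spans came from a RefSeq table of GRCh38.p14, and arms ended at the last gene, with assembly gaps and unmappable sequence not removed. Distances of all desert positions were read on a grid of 1 kb. Pileup and background came from the formulas MACS2 is known to use, fold = (pileup + 1) / (background + 1) and a Poisson p; for 100% of desert peaks some whole pileup matched the authors' −log10 p to 0.001. A background within 0.1% of the lowest in its list counted as lowest.

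Shares have Clopper-Pearson 95% intervals, ratios of counts and densities conditional binomial ones, densities Poisson ones and odds ratios conditional exact ones. Peaks of 1 library are not replicates. The members, gene lists and tests were chosen with earlier results of these data known. Named were, in either list, the top 10 desert peaks by −log10 q (ties included), the most remote desert peak of each, the 3 peaks on either side of the limit and the 8 gaps with the most peaks (ties by length); the other NC peaks were named so that all 13 are given. The positions of 2 tied OE-KDM4A peaks are not reported here. Steps were checked on simulated data. Intervals came from scipy 1.17.1 with numpy 2.4.6, tables from pandas 2.3.3 and plots from matplotlib 3.10.9, under Python 3.11.15.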

Additional observations from a re-analysis of the deposited data

How the results depend on the processing

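Stricter limits left few NC desert peaks. The ratio of desert peak numbers, OE-KDM4A to NC, was 26.0 (26 against 1, 4.27 to 1066) where the −log10 q had to reach 5 and 30 (60 against 2, 7.95 to 253) where the fold had to reach 5. At 100 kb the desert share of arm peaks was 9.84% in NC and 25.1% in OE-KDM4A, and at 500 kb it was 1.97% and 7.78%, since the desert itself grows or shrinks. With deserts bounded by all RefSeq genes the share was 0% in NC and 1.19% in OE-KDM4A, and the density ratio of deserts to near-gene arms was 0 in NC (upper bound 1.59) and 1.30 in OE-KDM4A (0.649 to 2.35, 11 peaks). That alternative left no NC desert peak, so it gave no ratio of peak numbers and no overlap. With a pileup of at least 9, an alternative added after seeing the data, the OE-KDM4A share was 13.2% and its density ratio 0.665; the cause was not tested. The other 37 values stayed within the intervals of the reported ones, among them the ratio of peak numbers without chromosome 2 (8.77). They included every overlap share of NC, each 0%. With the higher −log10 q, fold or distance, or a reciprocal overlap, that 0% was fixed in advance, as none of the 13 peaks overlapped at all. It could have risen at 100 kb (0 of 25) and within 5 kb of an OE-KDM4A peak. Protein-coding genes without LOC symbols and other near-gene territories were also added after seeing the data. The OE-KDM4A density ratio was 0.809 (0.665 to 0.981) against near-gene positions outside gene spans, where its interval no longer included 1. No paired analysis was possible because the lists share only 1 replicate number. The unknown depth of each library limits all of these values.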
